A study of Mus musculus with 12 samples.

Results

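A set of 37 genes of neutrophil granules, neutrophil receptors, stefins and the wider leukocyte programme was examined, out of 20606 genes in a table of bulk RNA sequencing of mouse lung fibroblasts. They were taken by gene symbol from a fixed list, and 37 of 37 were in the table. The list was made with earlier results of these data known. The shares of all genes beside the counts of members are thus a background and no test of the set. They were placed in 4 classes: 11 granule genes, 11 genes of mature neutrophil receptors and surface proteins, 4 stefins, and 11 leukocyte-wide genes. The leukocyte-wide class includes 3 subunits of the phagocyte oxidase. The granule class also holds the calprotectin subunits S100a8 and S100a9 and the histone citrullinating enzyme Padi4, which were not assigned to a granule. Counts, sums and medians of granule genes include them. The series title concerns breast cancer that spreads to the lung, and the libraries fall into 4 groups of 3. M-MyoF and N-MyoF are purified cells of the subgroup called MyoF in the labels, from mice with lung metastasis (M) and from normal mice (N). M-MF and N-MF are the same pair for the subgroup called MF, which the series title names as matrix fibroblasts. The sources used here do not give strain, genotype, age, tumour line, the number of mice per library or the markers used for purification. Whether the 3 libraries of a group are separate mice is not labelled, so a p-value reflects only their spread, which could be technical.

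Neutrophils are short-lived phagocytes made in the bone marrow, where their granules are filled in stages. Azurophil granule proteases and myeloperoxidase are transcribed in promyelocytes, the proteins of specific granules somewhat later, and most chemoattractant and cytokine receptors in nearly mature cells. In mice, Ly6g marks the lineage, stefin A genes lie in a cluster of close copies, and the phagocyte oxidase makes superoxide once its cytosolic subunits join the membrane subunit.

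Values are FPKM, fragments scaled for transcript length and library size, so levels of different genes can be set side by side but read depth is unknown. Sums per library lay between 528176 and 618478 FPKM and between 11466 and 12682 genes reached 1 FPKM. The labelled cell type was checked against 8 fibroblast markers, all present, which summed to 2094 to 2118 FPKM in M-MyoF, 3625 to 3685 in N-MyoF, 15345 to 15472 in M-MF and 21228 to 21473 in N-MF. The 6 epithelial markers, among them Scgb1a1 and Sftpc, summed to 15809 to 16338 FPKM in M-MyoF, 18701 to 19199 in N-MyoF, 3002 to 3024 in M-MF and 2244 to 2294 in N-MF. The MyoF libraries thus held more RNA of this epithelial list than of the fibroblast list. Most of the epithelial sum was Scgb1a1 and Sftpc, at 12279 and 3103 FPKM on average in M-MyoF, where Epcam averaged 6.15 and Cdh1 5.60. Of the 6 epithelial markers 2 rose and 3 fell in M-MyoF against N-MyoF, and 4 rose and 2 fell in M-MF against N-MF. The keratin genes Krt8 and Krt18 rose with the granule genes in both subgroups, and their part was not tested. Krt8 averaged 387 ± 13.1 FPKM in M-MyoF and 23.0 ± 2.07 in N-MyoF (log2 fold change 4.02), and 166 ± 4.32 in M-MF and 5.31 ± 0.721 in N-MF (4.73; SD, n = 3 each). Krt18 averaged 293 ± 2.62 FPKM in M-MyoF and 24.5 ± 1.06 in N-MyoF (3.53), and 122 ± 2.32 in M-MF and 4.79 ± 0.15 in N-MF (4.41). In these bulk samples, fewer cells of a type and less RNA per cell cannot be told apart.

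The 37 members made up 2.26% to 2.32% of the summed FPKM in the M-MyoF libraries, against 0.0485% to 0.0511% in N-MyoF. In the MF libraries they made up 0.0601% to 0.0611% in M-MF, against 0.0156% to 0.0170% in N-MF. M-MyoF was highest in every class. Granule genes summed to 12820 to 13194 FPKM there. Most of this sum was S100a8 and S100a9, which alone held 1.74% to 1.80% of all FPKM. By mean FPKM in M-MyoF, S100a8 ranked 2, S100a9 ranked 7 and Ngp ranked 47 among the genes of the table.

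**Figure D1:**
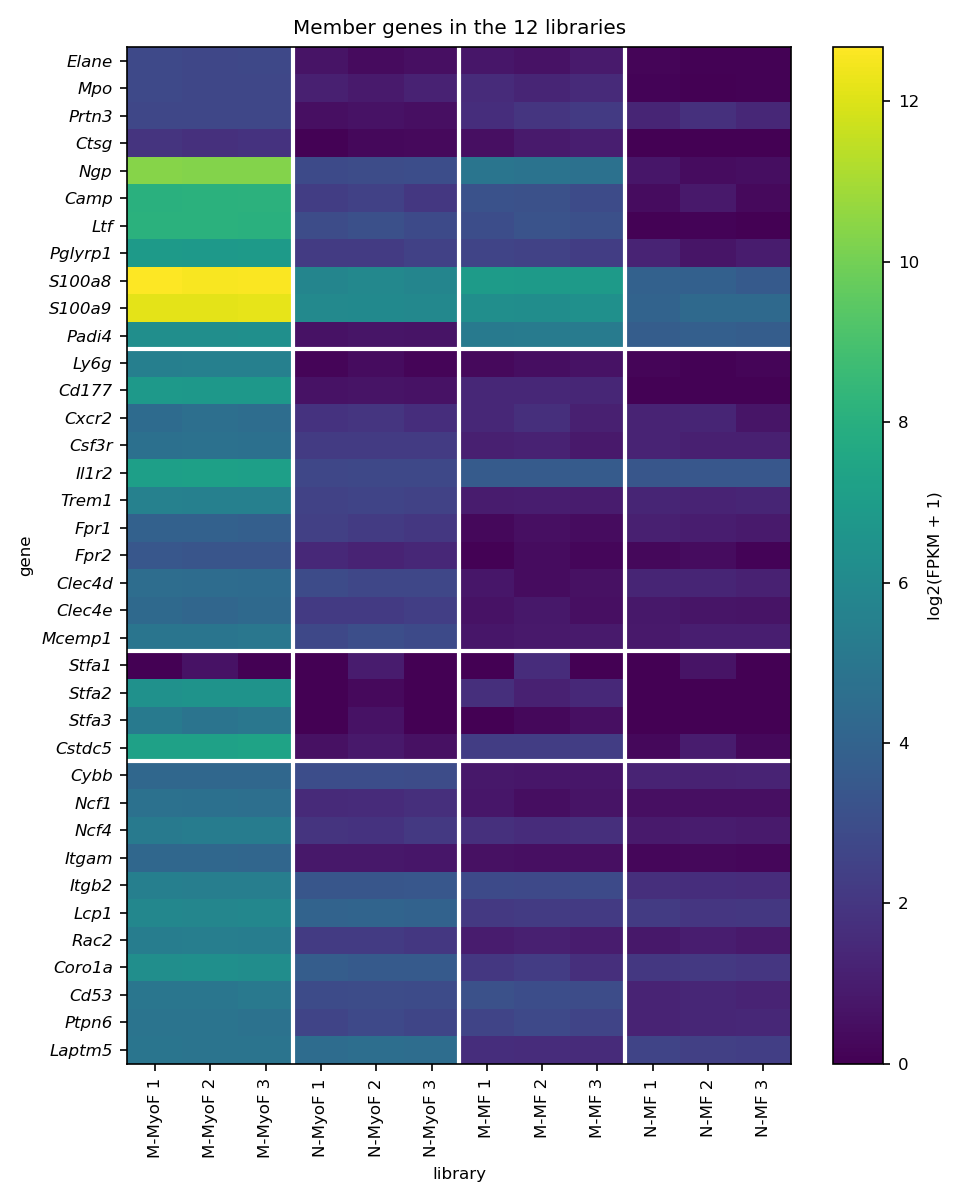
Expression of the 37 members (y axis, in the order granule, receptor, stefin and leukocyte-wide classes, separated by white lines) in each of the 12 libraries (x axis), coloured by log2(FPKM + 1). The 3 M-MyoF columns are brightest for nearly every gene, Padi4 is also bright in the MF columns, and Stfa1 is dark throughout.

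Promoters of 7 granule genes are shown as examples, and each of them has a match marked. Each line gives the 250 bases upstream of the RefSeq start listed first on GRCm38.p6, 5′ to 3′ on the strand of the gene. Capitals mark matches, on either strand, to the C/EBP core TTGCNNAA in Ngp and Ltf, to the PU.1 core GAGGAAGT in Elane, Prtn3, Mpo and S100a8, and to the TATA box TATAAA in S100a8 and Padi4. C/EBP factors and PU.1 are transcription factors of the granulocyte lineage. Ngp is at chr9:110419558-110419807 (+), Ltf at chr9:111019042-111019291 (+), Elane at chr10:79886062-79886311 (+), Prtn3 at chr10:79879417-79879666 (+), Mpo at chr11:87793534-87793783 (+), S100a8 at chr3:90668821-90669070 (+) and Padi4 at chr4:140774204-140774453 (-).
Ngp: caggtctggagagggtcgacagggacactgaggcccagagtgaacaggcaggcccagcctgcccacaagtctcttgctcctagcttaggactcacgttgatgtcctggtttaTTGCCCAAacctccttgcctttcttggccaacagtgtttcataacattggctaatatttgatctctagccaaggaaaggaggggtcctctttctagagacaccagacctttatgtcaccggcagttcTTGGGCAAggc
Ltf: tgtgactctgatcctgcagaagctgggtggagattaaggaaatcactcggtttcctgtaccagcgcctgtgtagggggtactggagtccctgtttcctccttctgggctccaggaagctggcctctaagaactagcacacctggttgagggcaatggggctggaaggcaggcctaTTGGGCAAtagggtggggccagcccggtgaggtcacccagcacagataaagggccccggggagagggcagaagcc
Elane: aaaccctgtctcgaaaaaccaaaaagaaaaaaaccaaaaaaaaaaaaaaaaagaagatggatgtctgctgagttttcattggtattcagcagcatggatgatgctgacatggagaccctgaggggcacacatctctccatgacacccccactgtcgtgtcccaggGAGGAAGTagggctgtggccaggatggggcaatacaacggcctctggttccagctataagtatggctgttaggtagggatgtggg
Prtn3: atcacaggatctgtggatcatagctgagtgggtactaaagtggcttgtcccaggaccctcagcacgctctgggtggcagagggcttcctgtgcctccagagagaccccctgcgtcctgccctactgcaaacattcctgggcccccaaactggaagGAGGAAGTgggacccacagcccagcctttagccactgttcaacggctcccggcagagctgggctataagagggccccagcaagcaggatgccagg
Mpo: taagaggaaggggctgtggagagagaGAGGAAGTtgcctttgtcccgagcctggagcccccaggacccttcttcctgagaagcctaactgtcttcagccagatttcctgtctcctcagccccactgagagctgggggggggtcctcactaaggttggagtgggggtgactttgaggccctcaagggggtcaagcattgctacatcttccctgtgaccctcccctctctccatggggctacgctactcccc
S100a8: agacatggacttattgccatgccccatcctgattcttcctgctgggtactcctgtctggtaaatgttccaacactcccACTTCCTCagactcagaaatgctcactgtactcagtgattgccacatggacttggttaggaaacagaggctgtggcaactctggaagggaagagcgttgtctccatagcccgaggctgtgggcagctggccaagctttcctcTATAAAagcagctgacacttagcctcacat
Padi4: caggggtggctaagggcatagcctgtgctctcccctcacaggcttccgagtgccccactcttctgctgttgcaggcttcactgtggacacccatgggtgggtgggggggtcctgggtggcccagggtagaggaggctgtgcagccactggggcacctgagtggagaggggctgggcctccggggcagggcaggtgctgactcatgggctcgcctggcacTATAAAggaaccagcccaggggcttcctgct

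In the Ngp promoter the C/EBP core stood at -138 to -131 and at -11 to -4, counted from the start base as 0, and in Ltf at -75 to -68. The PU.1 core stood at -85 to -78 in Elane, -95 to -88 in Prtn3, -224 to -217 in Mpo and -172 to -165 in S100a8. Elane and Prtn3 are neighbours on chromosome 10, from 79886312 to 79888216 and from 79879667 to 79883174. The TATA box stood at -30 to -25 in S100a8 and -31 to -26 in Padi4. The annotated Padi4 gene extends to 140774239 on chromosome 4, so the start used lies inside that span. Counted from the outer end of the span, this TATA box would be downstream. A promoter was on hand for 34 of the 37 members. The C/EBP core was found in 7 of the 34 (20.6%; 3 of 11 granule genes), against 9.56% of 32851 mouse promoters of the same length. The PU.1 core was found in 5 of the 34 (14.7%), against 2.44% of those promoters. Of these 5, 4 were the granule genes above and the other was Ly6g. TATAAA was found in 9 of the 34 (26.5%), against 12.4%. Of the granule genes not shown, Camp and Pglyrp1 matched none of these motifs, S100a9 only the C/EBP core and Ctsg only TATAAA. These are matches of letters in a window and say nothing of binding.

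M-MyoF was set against N-MyoF to ask how this subgroup differs in lungs with metastasis. On log2(FPKM + 1), 36 of the 36 members tested rose (limma, Benjamini-Hochberg adjusted p under 0.05 over 13300 genes), where 49.1% of all genes were called higher and 31.6% lower. At 2-fold or more 35 rose, where 11.4% of all genes did and 3.24% fell so far. The exception was Laptm5. Of the members, 5 passed the expression filter only through M-MyoF and so had to differ there, and of the other 31 tested, 31 rose. The median log2 fold change was 2.85 for the members tested and 0.11 for all genes. By class the median was 6.37 for stefins, 5.11 for granule genes, 2.50 for receptors and 2.15 for leukocyte-wide genes. Of all genes called, 60.8% were higher in the deposited values, and 45.8%, 48.2% and 41.1% once these were scaled by equal sums, by median ratios and by quantiles, while each of these called the same number of members higher, 36.

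Among the specific granule genes, Camp, the cathelicidin antimicrobial peptide precursor, had 264, 275 and 283 FPKM in M-MyoF, against 3.90, 4.47 and 3.15 in N-MyoF. Ltf, the iron-binding lactoferrin, had 270, 272 and 261 FPKM in M-MyoF, against 6.81, 7.41 and 6.23 in N-MyoF. The groups were far apart for both genes, and the log2 fold changes were 5.84 ± 0.133 for Camp and 5.11 ± 0.0631 for Ltf (SE). Ngp, a neutrophil granule protein related to the cathelicidins, had 1330, 1302 and 1283 FPKM in M-MyoF, against 6.24, 6.66 and 6.92 in N-MyoF. Its log2 fold change of 7.42 ± 0.0744 (limma adjusted p = 2.55e-16) was the highest of the members tested. Pglyrp1, which binds bacterial peptidoglycan, averaged 119 ± 1.92 FPKM in M-MyoF and 3.93 ± 0.492 in N-MyoF (SD, n = 3 each).

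The calprotectin subunits stood above the other members in level. S100a9 had 4556, 4645 and 4714 FPKM in M-MyoF, against 60.6, 62.7 and 59.7 in N-MyoF, a log2 fold change of 6.23. S100a8 reached 6325 ± 223 FPKM in M-MyoF, and its ratio of means to N-MyoF was 114.

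The azurophil granule genes were called higher too, but at levels far below the specific granule genes. Elane, neutrophil elastase, had 5.84, 5.44 and 5.70 FPKM in M-MyoF, against 0.61, 0.28 and 0.42 in N-MyoF (2.22 ± 0.0861). Prtn3, proteinase 3, averaged 5.48 ± 0.107 FPKM in M-MyoF and 0.473 ± 0.0493 in N-MyoF, and Mpo, myeloperoxidase, 5.68 ± 0.243 in M-MyoF and 1.13 ± 0.195 in N-MyoF. Ctsg, the protease cathepsin G, was lowest at 2.58 ± 0.191 FPKM in M-MyoF and 0.167 ± 0.0971 in N-MyoF. No library of M-MyoF overlapped N-MyoF for any of the 4.

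Padi4 encodes the enzyme that turns histone arginines into citrulline when neutrophils release chromatin. It had 76.7, 77.1 and 77.5 FPKM in M-MyoF, against 0.53, 0.62 and 0.58 in N-MyoF, a log2 fold change of 5.63 ± 0.0333. The related Padi1, Padi2, Padi3 and Padi6 stayed at or below 0.80 FPKM in each of the 12 libraries.

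Among surface proteins, Cd177, a GPI-anchored neutrophil antigen, had 111, 109 and 107 FPKM in M-MyoF, against 0.54, 0.60 and 0.52 in N-MyoF (6.15). Ly6g averaged 44.2 ± 0.989 FPKM in M-MyoF and 0.213 ± 0.127 in N-MyoF (5.22). Il1r2, the decoy receptor for interleukin-1, averaged 144 ± 3.32 FPKM in M-MyoF and 5.62 ± 0.11 in N-MyoF (4.45). For these 3 genes the log2 change was above 4. The other 8 receptors changed less, with log2 fold changes between 1.69 for the formyl peptide receptor Fpr1 and 2.99 for Trem1, an amplifier of innate signalling. Cxcr2, the receptor for neutrophil-attracting chemokines, had 20.9, 23.4 and 22.3 FPKM in M-MyoF, against 2.65, 2.88 and 2.12 in N-MyoF (2.71). Csf3r, the receptor for the granulocyte growth factor, had 24.8, 25.8 and 24.3 FPKM in M-MyoF, against 3.63, 3.56 and 3.60 in N-MyoF (2.50). The C-type lectins Clec4d and Clec4e had log2 fold changes of 1.72 and 2.08, Mcemp1, a membrane protein of myeloid cells, 2.06, and the formyl peptide receptor Fpr2 2.00.

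The stefins inhibit cysteine proteases such as cathepsins. Stfa2 had 85.0, 90.7 and 91.0 FPKM in M-MyoF, and 0.27 in the N-MyoF library numbered 2, the other two N-MyoF libraries being listed at 0. Stfa3 had 35.7, 28.9 and 31.6 FPKM in M-MyoF, and 0.56 in the same N-MyoF library, again with 0 listed in the other two. Cstdc5 averaged 157 ± 6.80 FPKM in M-MyoF and 0.59 ± 0.217 in N-MyoF. The log2 fold changes were 6.37, 4.83 and 6.64. Stfa1 behaved differently and was not tested: it was above 0 only in the libraries numbered 2, at 0.54 FPKM in M-MyoF, 0.96 in N-MyoF, 2.06 in M-MF and 0.59 in N-MF. Reads of the cluster cannot be divided with certainty between its members, since 22.5% of the 50-base windows of Stfa1 transcripts, 14.7% of Stfa2 and 25.1% of Cstdc5 occur in another cluster gene, against 0% for Stfa3.

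The leukocyte-wide genes averaged between 0.743 FPKM (Itgam) and 22.0 FPKM (Laptm5) in N-MyoF, and rose by between 0.38 and 3.43 on the log2 scale. Of the oxidase subunits, Cybb, the membrane subunit gp91phox, had 17.7, 17.9 and 17.9 FPKM in M-MyoF, against 7.03, 6.98 and 6.83 in N-MyoF (1.25). The cytosolic subunits Ncf1 and Ncf4 changed more, by 3.08 and 3.33. Ncf1 had 25.7, 24.5 and 23.4 FPKM in M-MyoF, against 1.84, 1.97 and 2.25 in N-MyoF. The ratio of Cybb to Ncf1 within a library was 0.687 to 0.766 in M-MyoF, against 3.04 to 3.82 in N-MyoF. The integrin chain Itgam, CD11b, rose by 3.43 and its partner Itgb2, CD18, by 2.03. Among actin regulators Rac2 changed by 3.24, Coro1a by 2.63 and Lcp1 by 1.82, and among membrane and signalling proteins Ptpn6 by 2.15 and Cd53 by 2.13. Laptm5, a lysosomal protein of blood cells, had 29.5, 28.3 and 28.6 FPKM in M-MyoF, against 21.0, 22.6 and 22.3 in N-MyoF (0.38), the smallest change of the members tested.

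**Figure D2:**
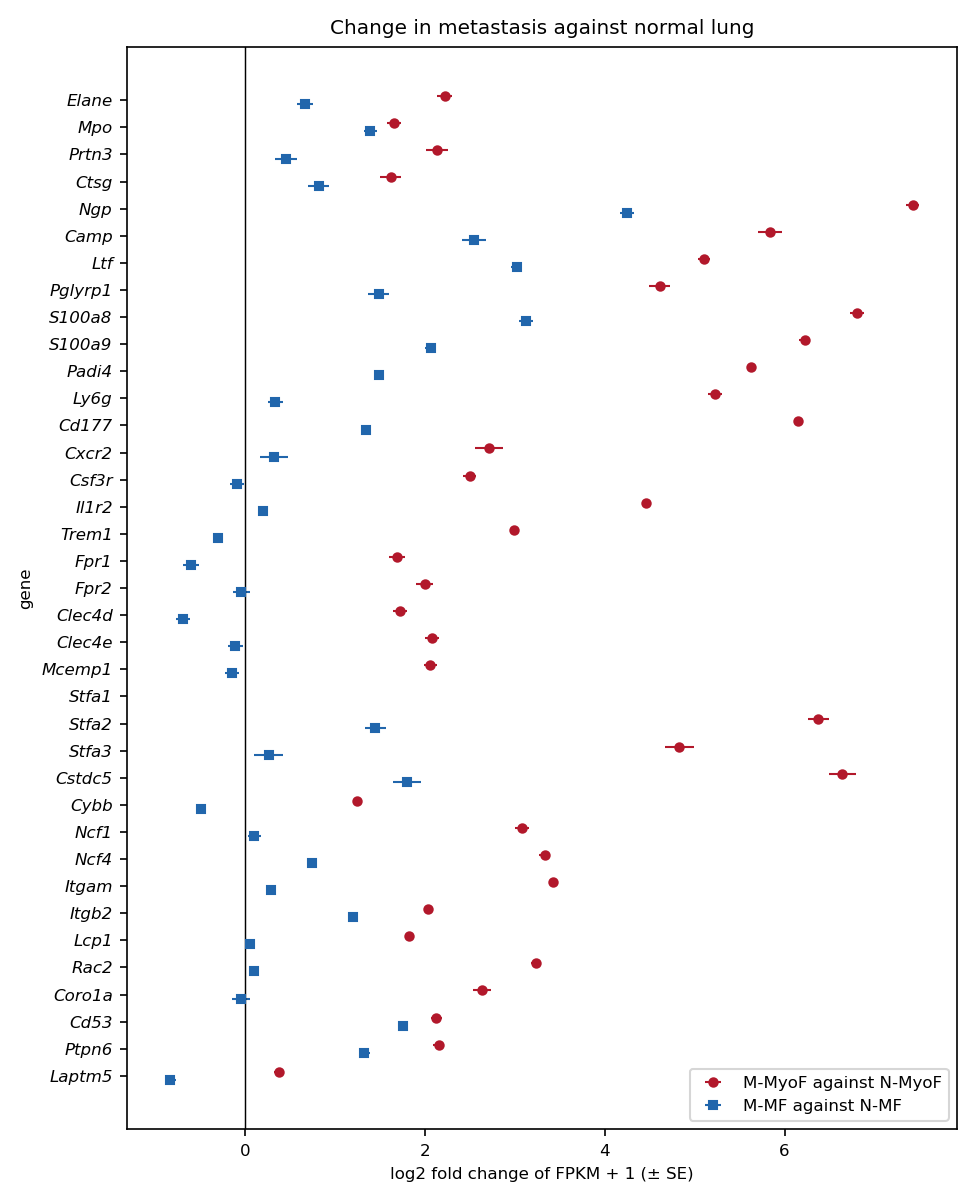
Log2 fold change of FPKM + 1 with its SE (x axis) for the members tested (y axis), M-MyoF against N-MyoF in red circles and M-MF against N-MF in blue squares. Every circle lies right of 0, while the squares of the granule genes lie right of 0 and those of several receptors lie at or left of it.

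M-MF was compared with N-MF to ask the same of the matrix fibroblasts. There 21 of the 36 members tested rose and 5 fell, where 46.3% of all genes were called higher and 31.8% lower. At 2-fold or more 14 rose, where 9.32% of all genes did and 2.54% fell so far, and the largest fall of a member was 0.83 on the log2 scale (Laptm5). The median log2 fold change was 0.40 for the members tested and 0.08 for all genes. The classes differed: of 11 granule genes 11 rose, of 11 receptors 3 rose and 3 fell, of 3 stefins 2 rose, and of 11 leukocyte-wide genes 5 rose and 2 fell. Their medians were 1.49, -0.09, 1.45 and 0.10. Quantile normalization moved the median of all genes to -0.10 and the count of members to 18 higher and 9 lower, and the share of all calls that were higher was 59.3% as deposited and 49.9%, 47.8% and 40.4% with equal sums, with median ratios and with quantiles.

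On log2(FPKM + 1), the largest rises of granule genes in M-MF were those of Ngp, S100a8, Ltf and Camp. As a ratio of mean FPKM, which weighs low genes more, they were Ltf at 134, Ngp at 55.5, Mpo at 33.3 and Camp at 16.0, with S100a8 at 9.29 and Elane at 9.0. Ngp had 29.0, 27.1 and 25.4 FPKM in M-MF, against 0.71, 0.36 and 0.40 in N-MF, a log2 fold change of 4.25 ± 0.0744. Ltf had 6.90, 8.41 and 7.44 FPKM in M-MF, against 0.06, 0.08 and 0.03 in N-MF (3.02 ± 0.0631), and Camp averaged 7.45 ± 0.871 in M-MF and 0.467 ± 0.312 in N-MF (2.54). S100a8 and S100a9 were the most abundant members in M-MF. S100a8 had 125, 118 and 119 FPKM in M-MF, against 14.3, 13.8 and 10.9 in N-MF (3.13), and S100a9 averaged 77.7 ± 4.10 in M-MF and 17.9 ± 2.06 in N-MF (2.06). Mpo had 1.94, 1.50 and 1.88 FPKM in M-MF, against 0.09, 0.02 and 0.05 in N-MF (1.39 ± 0.0758). Ctsg was at 0.41, 0.87 and 1.08 FPKM in M-MF and listed at 0 in the 3 N-MF libraries. Elane changed by 0.67 ± 0.0861.

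Prtn3 and Padi4 were the 2 granule genes whose N-MyoF libraries lay below those of N-MF. Prtn3 had 2.17, 2.93 and 3.46 FPKM in M-MF, against 1.45, 2.37 and 1.62 in N-MF, so the libraries overlapped. Its log2 fold change of 0.45 ± 0.123 passed (limma adjusted p = 0.00448), but was 0.30 without the 4 libraries numbered 3 (limma adjusted p = 0.0993). Padi4 had 36.5, 38.1 and 37.5 FPKM in M-MF, against 12.5, 13.2 and 12.2 in N-MF (1.49 ± 0.0333), with no overlap.

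The receptors went several ways in M-MF. Cd177 rose by 1.34 at low levels: it had 1.68, 1.68 and 1.56 FPKM in M-MF, against 0.04, 0.04 and 0.05 in N-MF. Ly6g stayed below 1 FPKM in each MF library and its call, 0.34, was lost under quantile normalization (0.19), as was that of Il1r2 (0.20, and 0.06 under it). Trem1 fell by 0.30, Fpr1 fell by 0.60 and Clec4d fell by 0.69. Clec4d had 0.69, 0.34 and 0.46 FPKM in M-MF, against 1.45, 1.50 and 1.27 in N-MF, and for Trem1 and Fpr1 too the M-MF libraries lay below the N-MF ones. Cxcr2 at 0.32, Csf3r at -0.09, Fpr2 at -0.04, Clec4e at -0.11 and Mcemp1 at -0.14 did not pass. With the library number as a replicate block, Cxcr2 (limma adjusted p = 0.0127) and Mcemp1 (limma adjusted p = 0.0421) passed, and Mcemp1 also passed as lower under each of the 3 scalings, at -0.20, -0.22 and -0.36.

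Of the stefins in M-MF, Stfa2 had 2.23, 1.24 and 1.79 FPKM and was listed at 0 in the 3 N-MF libraries, and Cstdc5 averaged 3.92 ± 0.0777 FPKM in M-MF and 0.453 ± 0.430 in N-MF (1.80). Stfa3 at 0.26 did not pass. Among leukocyte-wide genes, Cd53, a tetraspanin, had 7.95, 6.95 and 6.79 FPKM in M-MF, against 1.38, 1.55 and 1.36 in N-MF (1.76). Ptpn6, the phosphatase SHP-1, changed by 1.32, Itgb2 by 1.20, Ncf4 by 0.74 and Itgam by 0.29. Itgam was below 0.5 FPKM in each MF library, and its call was lost under quantile normalization (0.07). The oxidase subunit Cybb fell by 0.49 and Laptm5 fell by 0.83, with 2.19, 2.03 and 1.92 FPKM of Laptm5 in M-MF, against 5.01, 4.20 and 4.10 in N-MF. Ncf1 at 0.10, Rac2 at 0.10, Lcp1 at 0.06 and Coro1a at -0.05 did not pass.

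**Figure D3:**
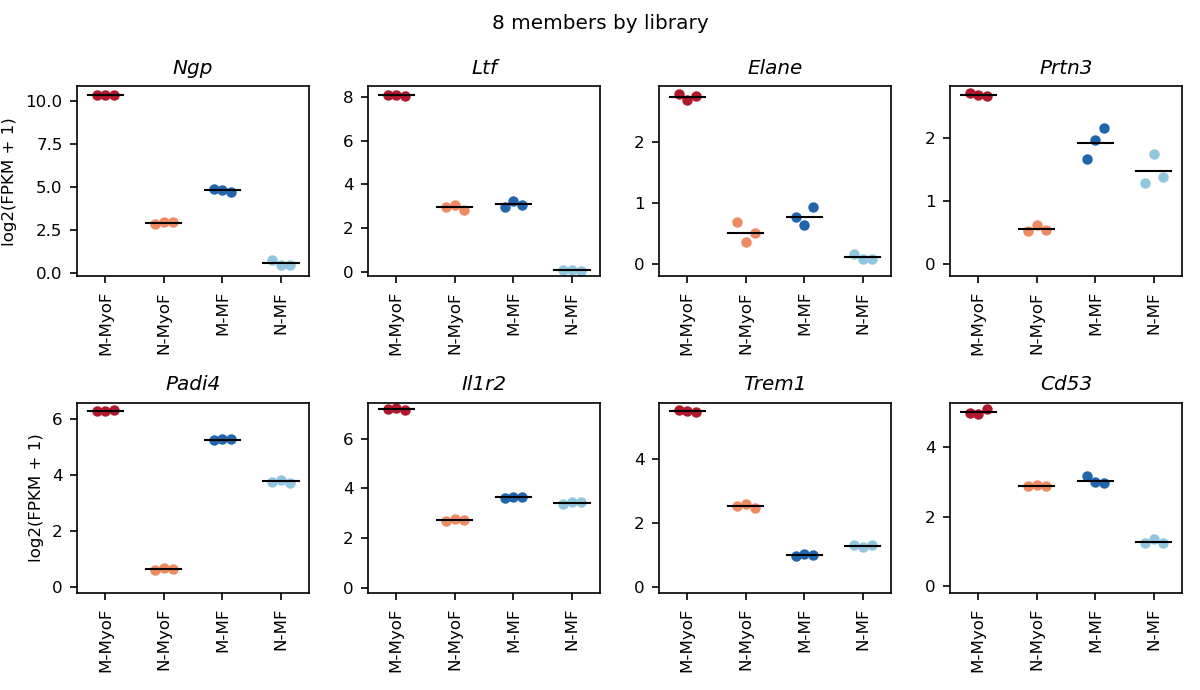
Values of 8 members in the 4 groups (x axis) as log2(FPKM + 1) (y axis), a point per library and a bar at the group mean. All 8 were highest in M-MyoF. Prtn3, Padi4 and Il1r2 were lower in N-MyoF than in N-MF. Trem1 was lower in M-MF than in N-MF, and Cd53 was raised in both subgroups.

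The difference between both metastasis effects, that of MyoF minus that of MF, was tested as an interaction. It was positive and passed for 35 of 36 members, where 38% of all genes were called higher and 26.4% lower. By 2-fold or more 31 differed, where 3.27% of all genes did upward and 3.83% downward. The 5 members that passed the filter only through M-MyoF are among the 36. Of the other 31 tested, 30 passed as positive, 27 of them at 2-fold or more. The median was 2.59 for the members tested and 0.06 for all genes, and 4.84 for stefins, 3.13 for granule genes, 2.41 for receptors and 1.76 for leukocyte-wide genes. Of all genes called, 59.0% were positive as deposited and 47.7%, 55.4% and 52.8% under the same 3 scalings. Mpo did not pass at 0.26 (limma adjusted p = 0.0507), and passed with the replicate block (limma adjusted p = 0.0147). Cd53 (0.37), Ctsg (0.80), Itgb2 (0.83) and Ptpn6 (0.83) were the members that passed below 2-fold. At low levels the scale matters: with a pseudocount of 0.1 the difference was -1.38 for Mpo and -0.35 for Ltf, both with group means below 0.1 FPKM in N-MF, and the calls of Ctsg (0.34) and Cd53 (0.015) were lost. As ratios of mean FPKM, Ltf was 39.3 in M-MyoF over N-MyoF and 134 in M-MF over N-MF, Mpo 5.03 and 33.3, and Cd53 4.90 and 5.06.

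The comparison of M-MyoF with M-MF sets the subgroups of lungs with metastasis side by side, and it shares its libraries with the comparisons above. Here 36 of 36 members tested were higher in M-MyoF, where 66% of all genes were called higher and 19.1% lower. By 2-fold or more 35 were higher, where 8.82% of all genes were higher and 4.74% lower. The 5 members that passed the filter only through M-MyoF had to differ there. Of the other 31 tested, 31 were higher, 30 of them by 2-fold or more. The median log2 fold change was 3.70, against 0.29 for all genes, a median that fell to 0.01 under median-ratio scaling and 0.02 under quantile normalization. The higher share of all calls was 77.6% as deposited and 71.0%, 51.2% and 52.8% under the 3 scalings.

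The members differed in how far M-MyoF exceeded M-MF. The ratio of mean FPKM was 112 for Ly6g, 66.4 for Cd177, 59.7 for S100a9, 52.5 for S100a8, 48.0 for Ngp, 36.8 for Camp and 35.3 for Ltf. The other 9 receptors ranged from 12.6 for Il1r2, 13.1 for Cxcr2 and 22.3 for Csf3r to 45.9 for Trem1 and 54.0 for Fpr2. The oxidase subunits had 44.3 for Ncf1, 25.3 for Cybb and 17.2 for Ncf4. The azurophil granule genes were lower, 7.86 for Elane, 3.28 for Ctsg, 3.20 for Mpo and 1.92 for Prtn3, whose log2 fold change of 0.76 was the only one under 2-fold. Padi4 also had a low ratio, 2.06. Among leukocyte-wide genes Cd53 had 4.36, Ptpn6 5.10 and Itgb2 6.91.

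**Figure D4:**
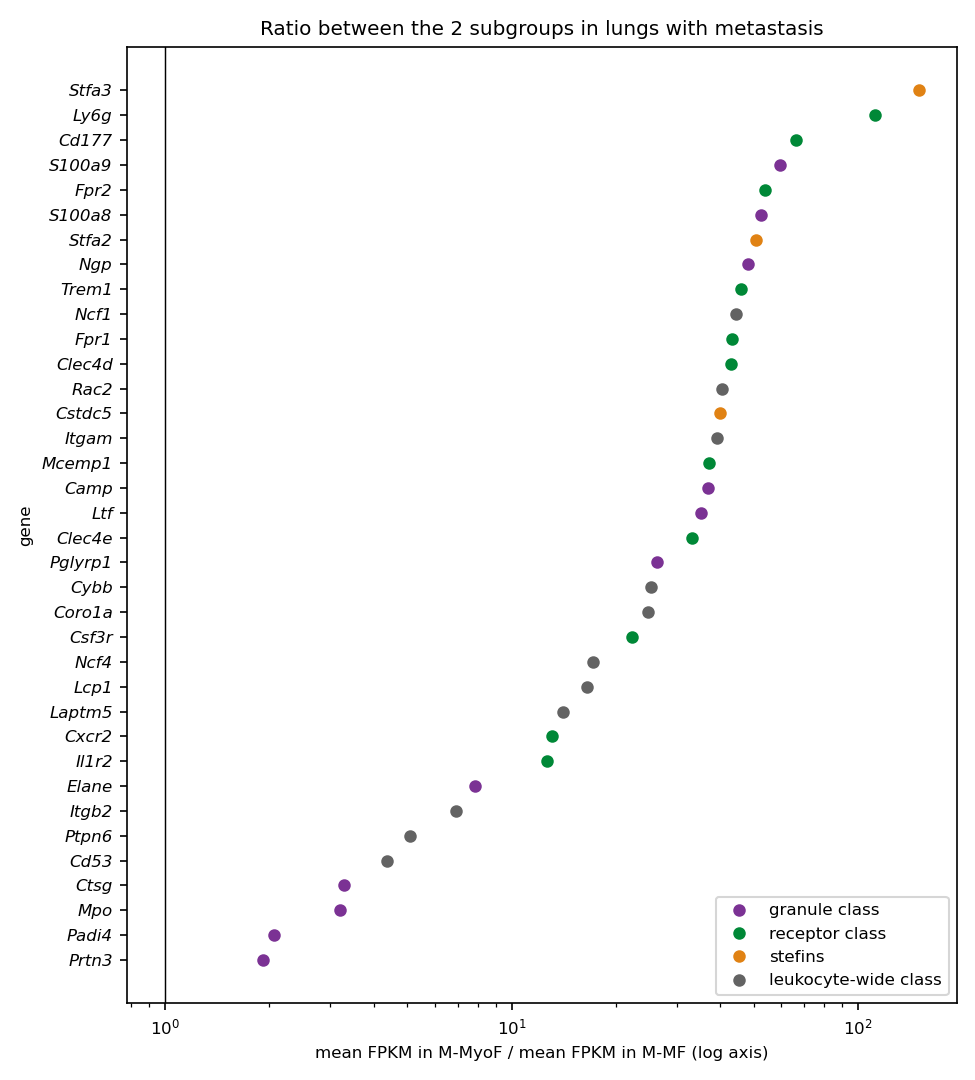
Ratio of mean FPKM in M-MyoF to that in M-MF (x axis, log scale) for the 36 members tested (y axis, sorted), coloured by class. Azurophil granule genes, Padi4, Cd53, Ptpn6 and Itgb2 lie at the low end, and Stfa3, Ly6g and Cd177 at the high end.

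Ratios of members within a library were read for chosen pairs, and some were closer between M-MyoF and M-MF than others. Ngp to S100a8 was 0.2028 to 0.2129 in M-MyoF and 0.2132 to 0.2324 in M-MF, close but without overlap. It was 0.112 to 0.129 in N-MyoF and 0.0261 to 0.0497 in N-MF. Ltf to Camp was 0.921 to 1.03 in M-MyoF and 0.856 to 1.15 in M-MF, ranges that overlap. Trem1 to Ngp was 0.0342 to 0.0346 in M-MyoF and 0.0327 to 0.0382 in M-MF, against 0.663 to 0.761 in N-MyoF and 2.07 to 3.83 in N-MF. In MF this ratio moved with Ngp, at 27.2 FPKM in M-MF and 0.49 in N-MF. Trem1 itself was lower in M-MF, at 0.98 FPKM, than in N-MF, at 1.44. Camp to Ngp was 0.198 to 0.221 in M-MyoF and 0.254 to 0.289 in M-MF. Other pairs were farther apart between M-MyoF and M-MF. Csf3r to Ngp was 0.0187 to 0.0198 in M-MyoF and 0.0331 to 0.0494 in M-MF, and Ly6g to Csf3r 1.74 to 1.84 in M-MyoF and 0.229 to 0.643 in M-MF. Mpo to Ngp was 0.00425 to 0.00448 in M-MyoF and 0.0554 to 0.0740 in M-MF, and Prtn3 to Elane 0.949 to 0.996 in M-MyoF and 3.06 to 5.33 in M-MF. Padi4 to Ngp was 0.0577 to 0.0604 in M-MyoF and 1.26 to 1.48 in M-MF. Itgam to Itgb2 was 0.415 to 0.423 in M-MyoF and 0.0713 to 0.0768 in M-MF.

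In normal lungs the members were also mostly higher in MyoF. In N-MyoF against N-MF 28 of 36 were higher and 3 lower, where 57.6% and 24.5% of all genes were called so. By 2-fold or more 24 were higher and 1 lower, where 11.9% and 4.88% of all genes were, with a median log2 fold change of 1.23 for the members and 0.21 for all genes (-0.03 under quantile normalization). The higher share of all calls was 70.2% as deposited and 68.3%, 46.2% and 47.9% under the 3 scalings. Of the leukocyte-wide genes 11 of 11 were higher in N-MyoF with a median of 1.59, led by Laptm5 at 2.08, with 22.0 ± 0.813 FPKM in N-MyoF and 4.44 ± 0.499 in N-MF. Ltf averaged 6.82 ± 0.590 FPKM in N-MyoF and 0.0567 ± 0.0252 in N-MF (2.88). The 3 that fell were Padi4 at -3.11, Prtn3 at -0.92 and Il1r2 at -0.70. Prtn3 had 0.44, 0.53 and 0.45 FPKM in N-MyoF, against 1.45, 2.37 and 1.62 in N-MF, and the order of Padi4 was likewise the reverse of most members. Ctsg (0.22), Ly6g (0.14), Stfa2 (0.11), Stfa3 (0.21) and Cstdc5 (0.16) did not pass. Of these, Cstdc5 passed without N-MF replicate 2, at 0.39 (limma adjusted p = 0.00124), and Ctsg (1.34) and Ly6g (0.59) passed with a pseudocount of 0.1.

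Markers of other cell types were summed in the same libraries, and their part in these results was not tested. Beside their counts, 49.1% of all genes were called higher and 31.6% lower in M-MyoF against N-MyoF. In M-MF against N-MF these shares were 46.3% and 31.8%. Of 6 pan-leukocyte markers 6 rose in M-MyoF, summing to 488 to 509 FPKM in M-MyoF, against 75.3 to 89.7 in N-MyoF. Ptprc, which encodes CD45, averaged 9.52 ± 0.306 FPKM in M-MyoF and 3.80 ± 0.0945 in N-MyoF (1.13). In MF, where the granule genes also rose, Ptprc was at 0.480 ± 0.0400 FPKM in M-MF and 0.643 ± 0.0950 in N-MF (-0.15 ± 0.0493). The pan-leukocyte sum was 158 to 181 FPKM in M-MF, against 24.8 to 28.9 in N-MF, and of its 6 genes 1 rose, Arhgdib, with 156 ± 5.35 FPKM in M-MF and 13.4 ± 0.249 in N-MF, and 1 fell, Ptprc.

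Mast cell and basophil markers moved with the granule genes in both subgroups: 4 of 4 tested rose in each, with sums of 103 to 107 FPKM in M-MyoF against 6.83 to 7.04 in N-MyoF, and 64.9 to 66.7 in M-MF against 2.57 to 2.93 in N-MF. Hdc, histidine decarboxylase, led the sum, at 77.9 ± 0.815 FPKM in M-MyoF and 6.72 ± 0.310 in N-MyoF. In M-MF nearly all of the sum was Hdc, at 61.2 ± 1.49 FPKM, against 2.49 ± 0.121 in N-MF. Mcpt8, Cpa3 and Tpsb2 averaged 3.73, 0.563 and 0.367 FPKM in M-MF. Of 10 macrophage markers tested 1 rose and 6 fell in M-MyoF, and 1 rose and 3 fell in M-MF; the riser was Fabp4 in both, and Adgre1 was at or below 1.46 FPKM in each library. Macrophage sums were 151 to 156 FPKM in M-MyoF against 75.4 to 79.1 in N-MyoF, and 352 to 374 in M-MF against 33.4 to 38.8 in N-MF. Fabp4 held most of the sums in M-MyoF and M-MF, at 114 and 347 FPKM on average. It averaged 22.3 FPKM in N-MyoF and 19.2 in N-MF. Of 3 monocyte markers tested 1 rose and 1 fell in M-MyoF and 3 rose in M-MF, with sums of 75.9 to 80.4 FPKM in M-MyoF against 64.8 to 70.7 in N-MyoF, and 104 to 113 in M-MF against 73.0 to 83.5 in N-MF. Of 3 erythroid markers tested 3 fell in M-MyoF, and 1 rose and 1 fell in M-MF. Erythroid sums were 1084 to 2121 FPKM in M-MyoF against 1986 to 3992 in N-MyoF, which overlap. Most of these sums was Hba-a1, at 1424 ± 569 FPKM in M-MyoF and 2699 ± 1094 in N-MyoF. The sums were 5.76 to 10.1 FPKM in M-MF against 15.9 to 39.9 in N-MF. Sums of T cell, B cell, NK cell and eosinophil markers were at most 13.1 FPKM in any library.

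**Figure D5:**
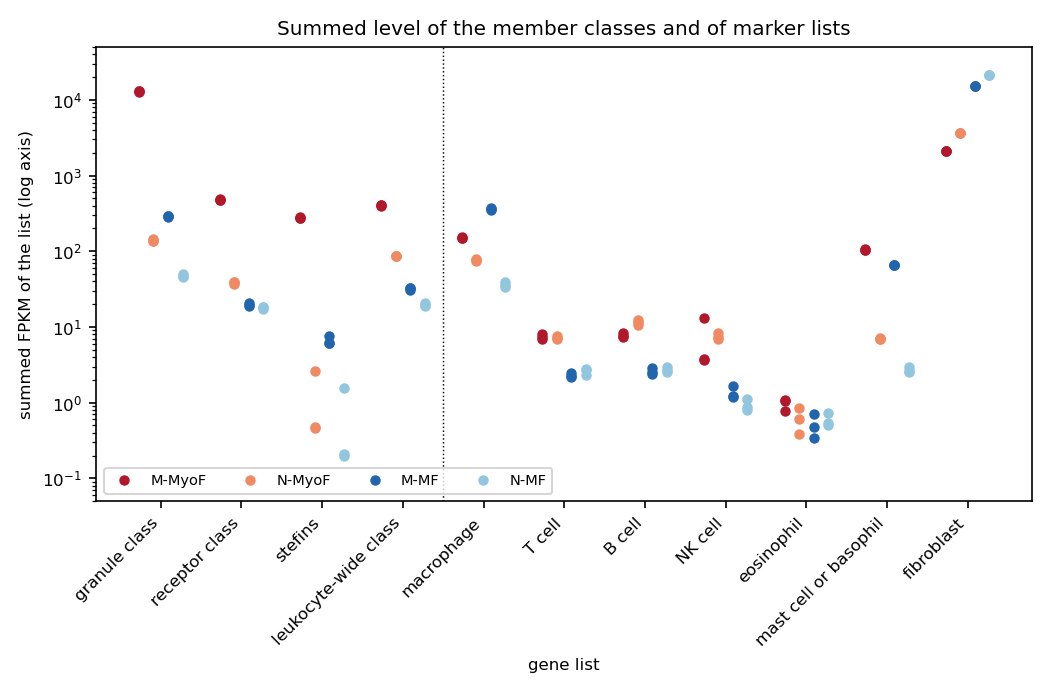
Summed FPKM (y axis, log scale) of the 4 member classes, left of the dotted line, and of 7 marker lists, right of it, with a point per library and colours for the 4 groups. The member classes were highest in M-MyoF and the T cell, B cell, NK cell and eosinophil lists were low in each group, while the fibroblast list was lower in MyoF than in MF libraries.

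Other genes of the same systems were read from 6 lists, with the 3 most abundant of each named. Of all genes, 49.1% were called higher and 31.6% lower in M-MyoF against N-MyoF, and 46.3% and 31.8% in M-MF against N-MF. A count near these shares, as of several lists in M-MF, is no result about its list. Of 15 other neutrophil granule genes tested 14 rose in M-MyoF (median 4.21) and 12 rose and 2 fell in M-MF (median 1.63). Cd63, a granule membrane tetraspanin, rose by 0.75 in M-MyoF and 0.42 in M-MF, and Anxa1, a phospholipid-binding protein, by 2.02 and 0.35. Lyz2, lysozyme, was at -0.04 in M-MyoF, which did not pass, and fell by 0.13 in M-MF. Of 16 other neutrophil receptors 14 rose and 2 fell in M-MyoF, and 8 rose and 3 fell in M-MF. Cd14, the endotoxin co-receptor, rose by 2.39 in M-MyoF and 2.57 in M-MF, Il17ra by 0.70 and 0.83, and Tlr2 fell by 0.65 and by 0.23. Of 7 other stefins and cystatins 6 rose and 1 fell in M-MyoF, and 5 rose and 1 fell in M-MF. Cst3, cystatin C, fell by 0.43 in M-MyoF and by 1.27 in M-MF, Cstb rose by 0.77 and 1.21, and Cstdc4 by 5.43 and 0.76.

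Of 9 other oxidase genes 6 rose and 2 fell in M-MyoF, and 4 rose and 4 fell in M-MF. Cyba, the partner of Cybb in the membrane, rose by 0.76 in M-MyoF and 0.29 in M-MF, and Rac1 rose by 0.49 in M-MyoF and fell by 0.24 in M-MF. Nox4, an oxidase of fibroblasts, fell by 0.84 in M-MyoF and by 0.66 in M-MF. Of 8 transcription factors of the lineage 3 rose and 5 fell in M-MyoF, and 2 rose and 3 fell in M-MF. Cebpd fell by 0.77 in M-MyoF and by 1.18 in M-MF, Klf2 fell by 0.65 and by 0.48, and Irf8 rose by 0.75 and 0.15. Cebpe and Spi1, the factor PU.1, were named after their values were seen: they rose by 1.33 and 1.93 in M-MyoF, and at -0.02 and -0.15 did not pass in M-MF. The rest of those tested, Runx1, Cebpb and Cebpa, fell in M-MyoF, averaging 8.06, 1.04 and 0.613 FPKM. In N-MyoF they averaged 12.6, 2.29 and 1.57 FPKM. They averaged 4.79, 0.673 and 0.567 FPKM in M-MF, against 1.86, 0.747 and 0.847 in N-MF. Of 12 growth factors and attractants of neutrophils 9 rose and 2 fell in M-MyoF, and 7 rose and 3 fell in M-MF. Cxcl1 fell by 0.12 in M-MyoF and by 0.17 in M-MF, Il6 fell by 1.73 and by 1.49, and Cxcl12 rose by 0.68 and 0.75.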

How the data were processed

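The study sequenced bulk polyA RNA of mouse lung cells in 12 libraries. Per the labels' protocols, Trizol was used for extraction, cDNA was synthesised and amplified by a SMART-seq2 procedure, and library construction used a transposon. The deposited values are FPKM as the authors computed them, given to 2 decimals, on GRCm38 per the submitters' processing notes. The sources used here do not give the aligner, the counting tool, its use of strand or the annotation, so reads of close copies or antisense partners cannot be assigned. No counts were used and read depth is unknown, so precision rests on the spread within each group of 3 libraries.

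Values were analysed as log2(FPKM + 1), which understates changes of low genes, with limma 3.58.1 in R 4.3.3. Group means of the 4 groups were fitted, with a mean-variance trend, to 13300 genes that reached 1 FPKM in 3 or more libraries. Benjamini-Hochberg adjustment ran over these genes, with a threshold of 0.05. The code was tested on simulated data. Tables and figures used Python 3.11.15, pandas 2.3.3, numpy 2.4.6 and matplotlib 3.10.9. Sample titles gave the groups and library numbers. Over 1830 genes at 50 FPKM or more, deviations from the group mean correlated at 0.482 to 0.796 in 18 same-numbered pairs of libraries and at -0.683 to 0.38 in 36 others. The numbers were therefore used as a replicate block in a further fit. The other alternatives were pseudocounts of 0.1 and 5, filters at 0 and 5 FPKM, 3 scalings, a fit on the compared groups, leaving out each library or the 4 numbered 3, and other thresholds.

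The members, their classes and the gene lists were chosen with earlier results of these data known. Each of the 37 members is reported, and of each pathway list the 3 genes with the highest mean FPKM are named. Of the transcription factors the other genes tested are named too. Of the entries of the 6 pathway lists, 5 had no line of that symbol in the table. Positions and promoters came from RefSeq (GRCm38.p6) by gene number and symbol, and stefin transcripts were compared in windows of 50 bases.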

Additional observations from a re-analysis of the deposited data

Results flagged for a closer look

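For 35 members the effect of metastasis differed between the subgroups by the interaction test in limma, with a larger change of log2(FPKM + 1) in MyoF (M-MyoF against N-MyoF) than in MF (M-MF against N-MF). With a pseudocount of 0.1 this turned for Ltf, to -0.35, and was lost for Ctsg (0.34) and Cd53 (0.015). Of the 35, 30 were among the 31 members that passed the expression filter outside M-MyoF. Among granule genes the difference of both log2 changes was 4.16 for S100a9, 4.14 for Padi4, 3.68 for S100a8, 3.30 for Camp, 3.18 for Ngp, 3.13 for Pglyrp1, 2.09 for Ltf, 1.68 for Prtn3, 1.55 for Elane and 0.80 for Ctsg. Among receptors and surface proteins it was 4.89 for Ly6g, 4.81 for Cd177, 4.25 for Il1r2, 3.29 for Trem1, 2.59 for Csf3r, 2.41 for Clec4d, 2.40 for Cxcr2, 2.29 for Fpr1, 2.20 for Mcemp1, 2.19 for Clec4e and 2.04 for Fpr2. The stefins differed by 4.93 for Stfa2, 4.84 for Cstdc5 and 4.56 for Stfa3.

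Among leukocyte-wide genes the difference was 3.14 for Itgam, 3.14 for Rac2, 2.98 for Ncf1, 2.68 for Coro1a, 2.59 for Ncf4, 1.77 for Lcp1, 1.73 for Cybb, 1.21 for Laptm5, 0.83 for Itgb2, 0.83 for Ptpn6 and 0.37 for Cd53. Of the 35, 5 passed in opposite directions in the subgroups: Trem1, Fpr1, Clec4d, Cybb and Laptm5 rose in M-MyoF and fell in M-MF. Ptprc moved the same way as these 5. The pan-leukocyte sum was higher in both M-MyoF and M-MF, but in M-MF only 1 of its 6 genes rose. That gene was Arhgdib, which held most of the sum there, at 156 FPKM in M-MF and 13.4 in N-MF. The part of Ptprc and of these markers was not tested.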

How the results depend on the processing

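Of 180 member values (36 members in 5 comparisons), 158 kept their direction and their side of the threshold under each of up to 22 alternatives. Quantile normalization called 9 members lower in M-MF against N-MF in place of 5. At 2-fold or more, 0 were lower there (limma), and 1 was lower in N-MyoF against N-MF in place of 3. With a pseudocount of 0.1, 1 member passed as negative in the difference of effects, Mpo at -1.38, and Ltf was at -0.35. In M-MF against N-MF, Lcp1 was at -0.031 with equal sums, -0.051 with median-ratio scaling and -0.089 with quantile normalization, which also put Ncf1 at -0.15 and Rac2 at -0.12. In N-MyoF against N-MF it put Ly6g at -0.054 and Cstdc5 at -0.16 and ended the call of Cxcr2 (0.35). Coro1a was at 0.087 without the 4 libraries numbered 3. The cause was not tested.

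Leaving out each library in turn gave 18 to 23 members higher and 5 to 6 lower in M-MF against N-MF. It gave 32 to 36 higher in M-MyoF against N-MyoF and in M-MyoF against M-MF, 31 to 36 in the difference of effects, and 26 to 29 higher and 3 lower in N-MyoF against N-MF. Without an M-MyoF library 32 members passed the filter, and without the 4 libraries numbered 3, 31 did. In M-MF against N-MF, Csf3r ranged from -0.17 to 0.0077, Fpr2 from -0.13 to 0.043 and Coro1a from -0.17 to 0.10, none passing. Members that gained a call there were Cxcr2 (without M-MF replicate 3 or N-MF replicate 2), Clec4e and Ncf1 (M-MF replicate 2), Mcemp1 and Lcp1 (N-MF replicate 1), Rac2 (N-MF replicate 2) and Stfa3 (M-MF replicate 1 or N-MyoF replicate 2). In N-MyoF against N-MF, Cstdc5 gained a call without N-MF replicate 2, and Ctsg without M-MF replicate 1, in the fit on the compared groups and with a pseudocount of 0.1. Mpo gained a call in the difference of effects without N-MyoF replicate 3, M-MF replicate 1 or M-MF replicate 3, with a pseudocount of 5 and with the filter of 5 FPKM. With the number as a replicate block, 22 members were higher and 6 lower in M-MF against N-MF and 36 were positive in the difference of effects. Besides Cxcr2, Mcemp1 and Mpo it changed no other call. Read depth is unknown, so a level near 0, as of Ctsg, Ly6g and Stfa3 in N-MF, carries no detection limit.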
